A study of Mus musculus with 2 samples.

Results

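The enzyme genes of glycolysis, the pentose phosphate pathway, pyruvate oxidation, the tricarboxylic acid (TCA) cycle and glycogen turnover were described in 2 sorted cell populations of C57BL/6 mice aged 8 weeks, both from the lamina propria of the small intestine, the connective tissue under the gut epithelium. The eosinophil sample was gated as CD11b+CD11c(int)MHCII-SiglecF+ and the dendritic cell sample as CD11c+MHCII+. Both samples were labelled unstimulated, and each was hybridised to 1 expression array, so there is no replicate error and no test. The labels do not state the number of animals per sort. Members were 56 genes fixed by name, and a probe set was taken where the platform annotation gave it 1 gene, updated symbols allowed. Of the 56, 50 had such a probe set, with 94 probe sets among the 22690 in the table, out of 12393 genes in all. The brightest probe set by mean log2 signal stood for each gene. No probe set was named for Hk3, Gpi1, Eno1, Pfkfb4, G6pdx or Gapdh alone.

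Glycolysis splits glucose into pyruvate in the cytosol and yields ATP without oxygen, and lactate dehydrogenase turns pyruvate into lactate while restoring the NAD+ that glycolysis needs. The pentose phosphate pathway branches off at glucose 6-phosphate, supplies NADPH and ribose, and NADPH feeds both biosynthesis and the oxidase that granulocytes use to make superoxide. Pyruvate that enters mitochondria is oxidised by pyruvate dehydrogenase and the TCA cycle. Activated dendritic cells are known for a strong glycolytic programme, and granulocytes, above all neutrophils, for glycogen stores.

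Signals are linear intensities, with each array scaled to the same trimmed mean. A signal under 135 units, the median signal over the 2 arrays pooled, was raised to that floor. Where only 1 array lay above it, the ratio is given as "at least", and a gene with both sides under it has no ratio. The 95th percentile of a list of germ cell, lens, hair, sensory and other tissue-restricted genes was 193 units, so a signal between these values may be background. Probe sets of the same gene had a pooled log2 SD of 0.726 over 1766 genes, the only spread these arrays allow. The sort markers followed the labels: 5 of 6 eosinophil markers exceeded the floor on the eosinophil array and 0 on the dendritic cell array. Of 10 dendritic cell markers, 8 were at least 4-fold brighter on the dendritic cell array. On the eosinophil array 5 of the 10 still exceeded the floor, led by Cd74 at 606 units (64399 in dendritic cells). Zbtb46, another of them, gave 400 units in eosinophils and 592 in dendritic cells. Prg2, the major basic protein of eosinophil granules, was under the floor on both arrays. Most markers of other cells were dim. Epithelial markers summed to 1844 units on the eosinophil array and 1655 on the dendritic cell array. Krt18 (869.6 units in eosinophils, 60.7 in dendritic cells) and Cldn7 (under the floor in eosinophils, 530.2 units in dendritic cells) led in opposite directions. Macrophage markers summed to 1511 and 1817 units, led by Csf1r at 763 and 1121. For scale, the eosinophil marker Epx gave 837 units in eosinophils. Of the T cell, B or plasma cell, neutrophil, mast cell, stromal and erythroid markers, Cd3e was the brightest, with 336 units in eosinophils and 557 in dendritic cells. Their part in the results was not tested. With sorted cells measured in bulk, fewer cells with a transcript and less of it per cell cannot be told apart.

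By brightest probe sets, the enzyme genes were more often brighter in dendritic cells than in eosinophils, and the pathways went different ways. Of the 50 genes, 45 exceeded the floor on 1 array or both, and 37 on both. Of the 45, 25 were brighter in dendritic cells and 20 in eosinophils, where 3402 and 4592 of all genes measured were. Towards eosinophils, 2-fold was passed by 7 of the 45, where 19.0% of all 7994 genes measured did so. Towards dendritic cells it was passed by 12 of the 45, where 15.5% of all genes measured did so. At 4-fold, Ldhc, Pygl and Idh1 were brighter in eosinophils and Pfkp was brighter in dendritic cells, where 5.35% of all genes measured were in each direction. The median log2 difference, eosinophil minus dendritic cell, was -0.39 over the 45 and 0.16 over all genes measured, but 0.098 over the members when all probe sets of a gene were averaged. Another rule preferred probe sets with plain IDs, without the letter that marks sets matching several transcripts. By it, 9 members passed 2-fold towards eosinophils and 10 towards dendritic cells. Of all genes measured by that rule, 19.1% and 14.6% did so. The scale between the arrays matters for these splits: the hybridisation spike controls had 2.06 times the signal on the eosinophil array, and centred on them 3 members passed 2-fold towards eosinophils and 23 towards dendritic cells, and 3 and 10 passed 4-fold. Of all genes measured on that scale, 6.00% passed 2-fold towards eosinophils and 36.9% towards dendritic cells, and 1.98% and 14.2% passed 4-fold. That centring lowers a difference by 1.04 on the log2 scale where both signals stay above the floor, and by less where 1 is raised to it, and puts the median of all genes at -0.63, so a smaller excess in eosinophils turns below 0 on that scale. Setting array medians equal lowers differences between signals above the floor by 0.279. With array medians set equal, or with housekeeping genes as the reference, 3 members passed 4-fold towards eosinophils and 3 towards dendritic cells. Of all genes measured, 3.99% and 7.21% did so with medians equal, and 4.83% and 6.08% with housekeeping genes.

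**Figure D1:**
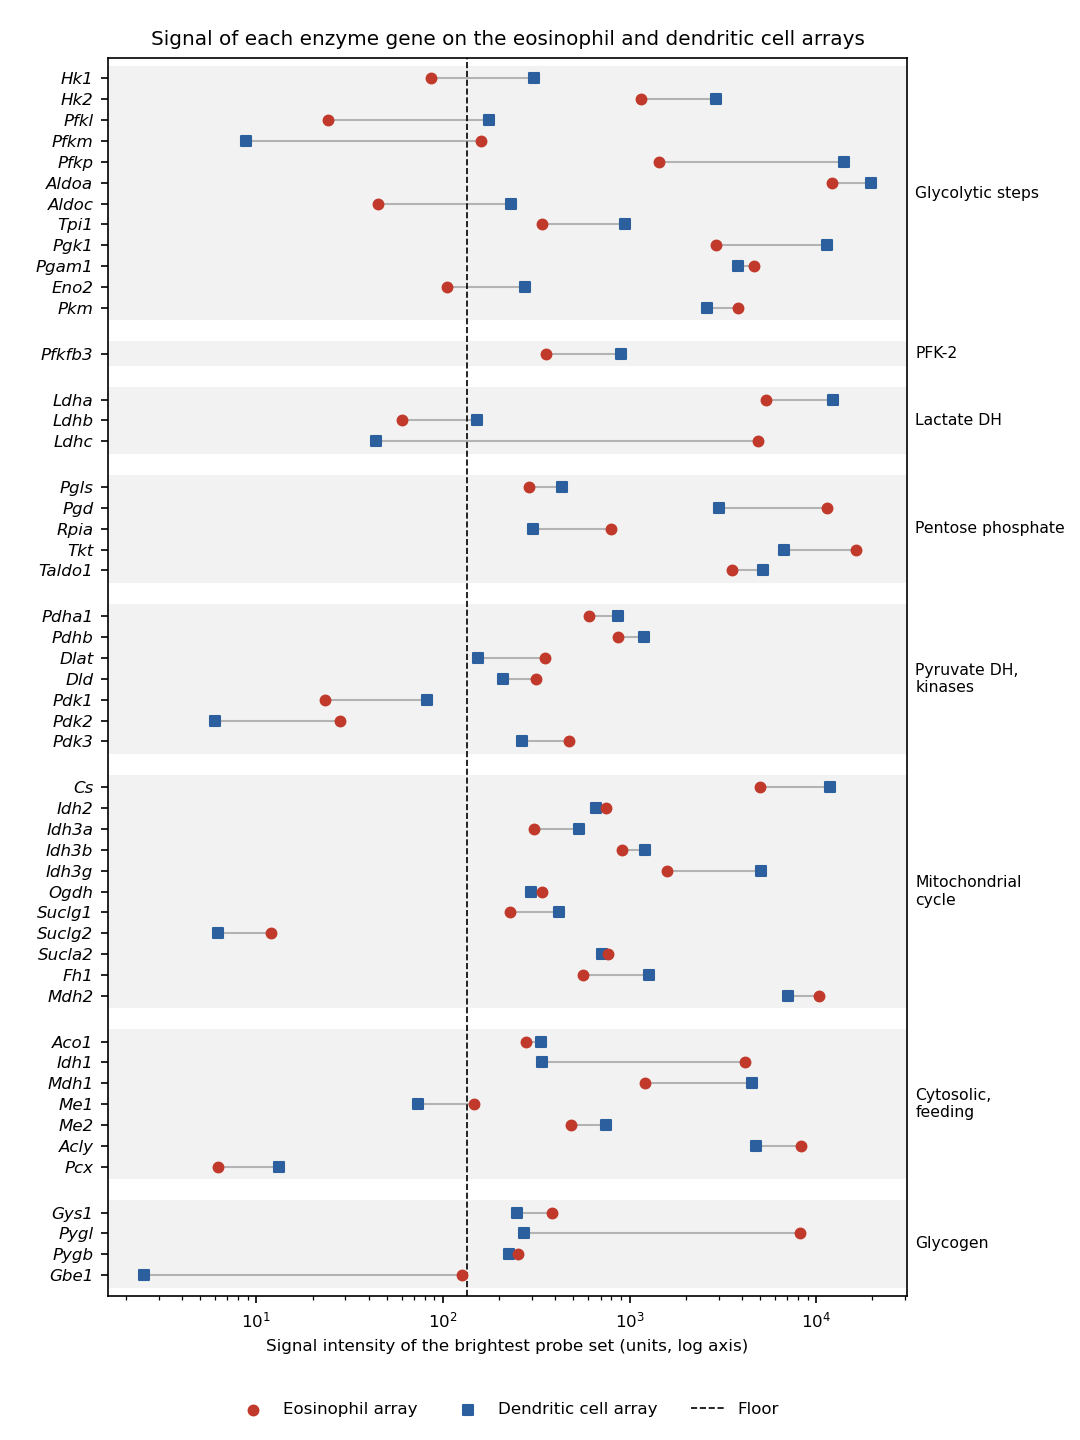
Signal of the brightest probe set of each of the 50 enzyme genes (units, log axis) on the eosinophil array (red circles) and the dendritic cell array (blue squares), grouped by pathway, with the floor of 135 units as a dashed line and 1 array per population. Ldhc, Pygl and Idh1 lie far to the right in eosinophils, and Pfkp in dendritic cells.

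The promoter windows of 4 genes are shown because Ldhc and Pygl had the widest excess in eosinophils, Pfkp had the widest excess in dendritic cells, and Ldha is the protein-coding gene next to Ldhc on chromosome 7 yet was brighter in dendritic cells. Each runs 250 bases before to 50 after the annotated start in RefSeq, build GRCm38.p6, 5′ to 3′ on the gene's strand. Ldhc and Ldha have a second annotated start each, not shown. Capitals mark ACGTG or GCGTG read on either strand, the core letters that hypoxia-inducible factors bind, and ACGTG also lies inside the E-box CACGTG.
Ldhc promoter, chr7:46861013-46861312, plus strand: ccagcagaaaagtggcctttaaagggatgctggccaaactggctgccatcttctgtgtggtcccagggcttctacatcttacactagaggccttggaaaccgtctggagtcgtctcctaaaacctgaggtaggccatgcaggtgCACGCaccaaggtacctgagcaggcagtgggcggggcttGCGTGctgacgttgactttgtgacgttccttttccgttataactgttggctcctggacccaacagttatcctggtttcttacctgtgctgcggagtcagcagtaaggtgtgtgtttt
Ldha promoter, chr7:46845554-46845853, plus strand: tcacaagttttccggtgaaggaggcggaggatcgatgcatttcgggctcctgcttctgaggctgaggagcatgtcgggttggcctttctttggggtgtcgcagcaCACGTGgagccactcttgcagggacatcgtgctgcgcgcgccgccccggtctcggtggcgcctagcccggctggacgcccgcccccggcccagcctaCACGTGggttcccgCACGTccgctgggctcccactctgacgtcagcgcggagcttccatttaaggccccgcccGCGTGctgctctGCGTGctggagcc
Pfkp promoter, chr13:6648722-6649021, minus strand: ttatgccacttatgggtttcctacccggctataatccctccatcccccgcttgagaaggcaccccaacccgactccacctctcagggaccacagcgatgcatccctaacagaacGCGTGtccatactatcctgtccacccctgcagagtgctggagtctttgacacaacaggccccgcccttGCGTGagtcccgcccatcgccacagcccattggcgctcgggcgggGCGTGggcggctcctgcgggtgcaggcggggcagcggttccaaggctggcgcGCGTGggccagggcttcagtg
Pygl promoter, chr12:70227634-70227933, minus strand: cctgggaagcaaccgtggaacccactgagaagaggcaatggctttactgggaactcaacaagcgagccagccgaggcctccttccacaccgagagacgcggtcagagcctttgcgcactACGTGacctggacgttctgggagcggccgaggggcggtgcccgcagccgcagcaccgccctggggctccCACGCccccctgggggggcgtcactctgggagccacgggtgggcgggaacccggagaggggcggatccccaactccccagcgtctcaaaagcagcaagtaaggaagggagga
All 4 windows shown hold the letters, in 2 stretches for Ldhc, 5 for Ldha, 4 for Pfkp and 2 for Pygl. Of these, only the Ldha window holds CACGTG. The window of the second Ldhc start holds none of the letters, and that of the second Ldha start holds 2 stretches without CACGTG. Over the 78 windows found for 54 of the 56 members, 56 (71.8%) hold ACGTG or GCGTG, against 43.8% of all 32851 windows. The members' windows are also richer in G and C, with a median of 60.5% against 52.7% of all windows. They hold a median of 20 CG pairs against 7 in all windows, and both ACGTG and GCGTG contain CG. The part of this composition in the motif count was not tested. For CACGTG the shares are 10.3% and 7.15%. These matches are a description of letters, and they occur in windows of genes brighter on either array.

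Most glycolytic steps were brighter in dendritic cells. Of 12 measured genes for the steps between glucose and pyruvate, 6 passed 2-fold towards dendritic cells and 0 towards eosinophils. Of all genes measured, 15.5% and 19.0% did so. The median log2 difference of the 12 was -0.91, against 0.16 over all genes measured. Pfkp, the platelet-type phosphofructokinase that catalyses the committed step, gave 1431 units in eosinophils and 14159.5 in dendritic cells, 9.90-fold apart. Its other probe set was dim, at 44.8 and 146 units, and pointed the same way, and averaging both moved the difference to -2.51 on the log2 scale. The other phosphofructokinases were near the floor. Pfkl, the liver type, gave 24.1 units in eosinophils and 177 in dendritic cells, and Pfkm, the muscle type, gave 159 and 8.83 units. Neither exceeded the background percentile on either array, so no difference was detectable for them.

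Hexokinase genes, whose enzymes trap glucose as glucose 6-phosphate, followed Pfkp in direction. Hk2 gave 1148 units in eosinophils and 2889.9 in dendritic cells, 2.52-fold apart. Hk1 gave 86.3 units, under the floor, in eosinophils and 309 in dendritic cells, at least 2.29-fold, or -0.68 on the log2 scale with the floor at the background percentile. Triose phosphate isomerase, Tpi1, gave 339.6 and 944 units, and its 3 probe sets lay between -2.21 and -1.47 on the log2 scale. Phosphoglycerate kinase, Pgk1, which makes the first ATP of the pathway, gave 2893 units in eosinophils and 11357 in dendritic cells, 3.93-fold apart, and its 3 probe sets lay between -2.33 and -1.97. Each probe set of Tpi1 and Pgk1 thus passed 2-fold towards dendritic cells. Eno2, the enolase first known from neurons, gave 105 units, under the floor, in eosinophils and 275 in dendritic cells, at least 2.04-fold, and -0.51 on the log2 scale with the higher floor.

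Gapdh, which oxidises glyceraldehyde 3-phosphate, could be read only from the array's control probe sets and from probe sets shared with its pseudogenes. The 3′ control gave 14627 units in eosinophils and 29721 in dendritic cells, the middle control 4737 and 11235, and the 5′ control 1491 and 4515. All 3 were brighter in dendritic cells, at -1.02, -1.25 and -1.60 on the log2 scale. The brighter shared probe set gave 24063 and 48736 units, a log2 difference of -1.02. The ratio of 3′ to 5′ signal, which grows as RNA is degraded or copied short, was 9.81 in eosinophils and 6.58 in dendritic cells for Gapdh, and 6.38 and 9.002 for beta-actin, so the arrays' order reverses between the controls. On both arrays the 3′ signal was thus at least 6.38 times the 5′ signal. How far this lowers probe sets lying away from the 3′ end was not tested.

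The other measured glycolytic genes did not pass 2-fold. Aldolase A, Aldoa, gave 12178 units in eosinophils and 19636 in dendritic cells, 1.61-fold apart, although its 4 probe sets ran between -0.69 and 0.17 on the log2 scale. Aldoc, another aldolase, gave 44.99 and 232 units, at least 1.72-fold brighter in dendritic cells. The log2 difference of Aldoc was -2.37 with the floor at the 25th percentile of signals. The last steps leaned the other way. Phosphoglycerate mutase, Pgam1, gave 4634 units in eosinophils and 3823 in dendritic cells, and pyruvate kinase, Pkm, gave 3799 and 2612 units, 1.21-fold and 1.45-fold brighter in eosinophils. Both are within the spread between probe sets of a gene. Centring on the spike controls puts both below 0, at -0.76 and -0.50 on the log2 scale, and array medians set equal leave Pgam1 at -0.0016. Pfkfb3, which makes the fructose 2,6-bisphosphate that activates phosphofructokinase, gave 358 units in eosinophils and 895 in dendritic cells, 2.50-fold apart. It thus shared the direction of Pfkp.

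The lactate dehydrogenases parted. Ldha, the subunit of most glycolytic tissues, gave 5369 units in eosinophils and 12243 in dendritic cells. It was 2.28-fold brighter in dendritic cells, and under 2-fold after quantile normalization or loess (-0.95 and -0.92 on the log2 scale). Ldhc, the isoform known from testis and sperm, gave 4849 units in eosinophils and 44.03 in dendritic cells, where it was under the floor. It was at least 35.99-fold brighter in eosinophils. Its other probe set gave 875 units in eosinophils and 1.90 in dendritic cells, so both probe sets were well over the floor on the eosinophil array and under it on the dendritic cell array. Ldhb, the heart-type subunit, gave 60.7 units in eosinophils and 152 in dendritic cells, under the background percentile on both arrays by each of its 4 probe sets. Pgk2, the phosphoglycerate kinase known from testis, gave 50.8 units in eosinophils and 139 in dendritic cells, near or under the floor. The Ldhc and Ldha promoters shown above belong to neighbouring genes with opposite differences.

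**Figure D2:**
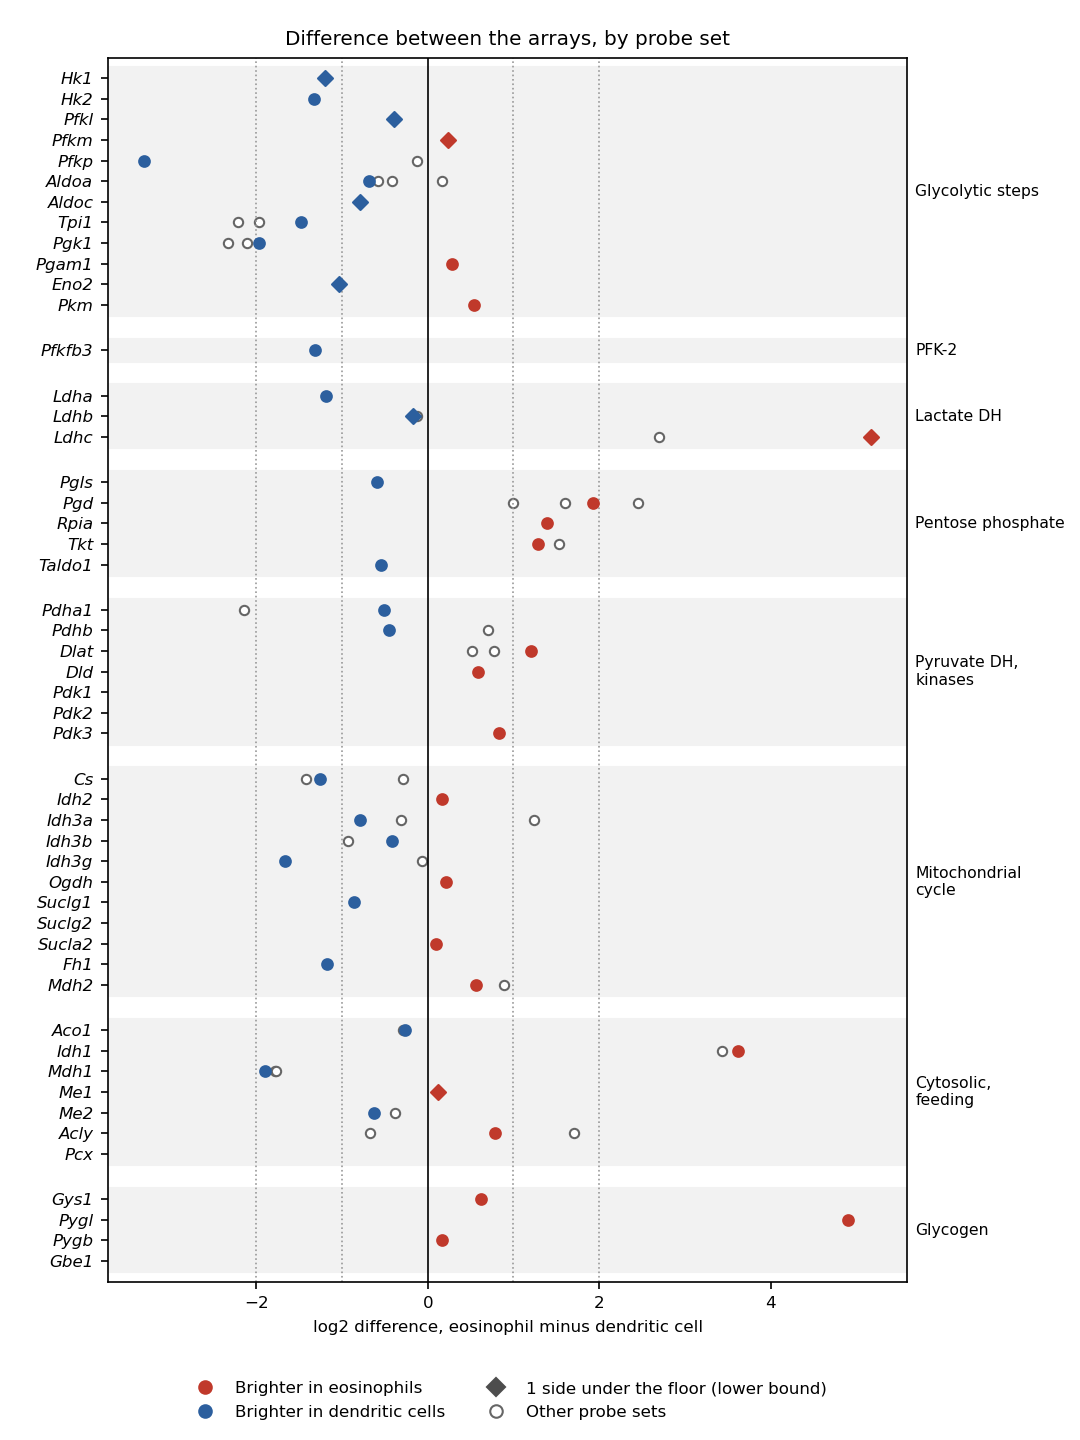
Log2 difference between the arrays, eosinophil minus dendritic cell, for each enzyme gene, with the brightest probe set filled (red, brighter in eosinophils; blue, brighter in dendritic cells; diamonds, 1 side under the floor) and other measured probe sets open. Glycolytic genes lie mostly left of 0, Pgd, Rpia and Tkt to its right, and rows without a symbol are genes under the floor on both arrays.

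Pentose phosphate genes were the group with the clearest excess in eosinophils. Of 5 measured, 3 passed 2-fold towards eosinophils and 0 towards dendritic cells, where 19.0% and 15.5% of all genes measured did so. The 5 had a median log2 difference of 1.29, against 0.16 over all genes measured. Pgd, 6-phosphogluconate dehydrogenase, which makes NADPH and ribulose 5-phosphate, gave 11487 units in eosinophils and 3012 in dendritic cells. It was 3.81-fold brighter in eosinophils, with 4 probe sets between 0.99 and 2.45 on the log2 scale. Rpia, which isomerises ribulose 5-phosphate to ribose 5-phosphate, gave 796 and 303 units, 2.62-fold apart on its single probe set. Transketolase, Tkt, which links the pathway back to glycolysis, gave 16351 units in eosinophils and 6703 in dendritic cells, 2.44-fold apart, and 1.54 on the log2 scale by its other probe set. After centring on the spike controls all 3 stayed brighter in eosinophils but under 2-fold, at 0.89, 0.35 and 0.25.

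The remaining pentose phosphate genes pointed the other way by less than the spread between probe sets. Transaldolase, Taldo1, which works beside transketolase, gave 3538 units in eosinophils and 5169 in dendritic cells, 1.46-fold brighter in dendritic cells. Pgls, the lactonase between the 2 dehydrogenases, gave 287 and 433 units, 1.51-fold brighter in dendritic cells. Both dehydrogenases make NADPH, but G6pdx, the first of them, had no probe set named for it alone. H6pd, its counterpart in the endoplasmic reticulum, gave 352 units in eosinophils and 6.88 in dendritic cells. It was at least 2.61-fold brighter in eosinophils, or 1.82-fold against the background percentile. Other partner genes did not share this: Rpe gave 432 units in eosinophils and 371 in dendritic cells, 1.16-fold apart. Prps1 gave 58.5 units, under the floor, in eosinophils and 253 in dendritic cells, at least 1.88-fold brighter in dendritic cells. Tktl1, Rbks and Prps2 were under the floor on both arrays. As a group, the pentose phosphate genes had a median 2.19 above that of the glycolytic steps on the log2 scale, a gap that a single shift of 1 array leaves in place apart from the floor.

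By their brightest probe sets, pyruvate dehydrogenase genes mostly differed by less than 2-fold between the arrays. This mitochondrial complex joins E1, E2 and E3 enzymes to turn pyruvate into acetyl-CoA, and its kinases switch it off. Of 5 measured genes, 1 passed 2-fold towards eosinophils and 0 towards dendritic cells, where 19.0% and 15.5% of all genes measured did so. The median log2 difference of the 5, 0.59, became -0.45 on the spike scale. The 1 gene was Dlat, the E2 acetyltransferase, with 354 units in eosinophils and 154 in dendritic cells, 2.30-fold apart. The dendritic cell signal lay under the background percentile. The difference was under 2-fold on the log2 scale with array medians equal (0.92), quantile normalization (0.995), loess (0.97), the background floor (0.88), averaged probe sets (0.83) or the spike scale (0.16). The E1 subunits Pdha1 (607 units in eosinophils, 867 in dendritic cells) and Pdhb (869 and 1194) were 1.43-fold and 1.37-fold brighter in dendritic cells. Second probe sets disagreed with these in size or direction: that of Pdha1 gave 11.3 and 598 units, and that of Pdhb gave 218 and 18.7 units. Averaged probe sets gave log2 differences of -2.42 for Pdha1 and 1.54 for Pdhb. The size for Pdha1 and the direction for Pdhb are thus unsettled. Dld, the E3 subunit also used by the 2-oxoglutarate complex, gave 317 and 210.2 units, 1.51-fold brighter in eosinophils. Among the kinases, Pdk3 gave 472 units in eosinophils and 266 in dendritic cells, 1.78-fold apart, and Pdk1 (23.4 and 81.99 units) and Pdk2 (28.2 and 6.04 units) were under the floor on both arrays. Pdk1 is a textbook target of hypoxia-inducible factor, and a part of that factor in any difference between the arrays was not tested.

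TCA cycle genes of the mitochondrial matrix had a median below 0 on the deposited scale. Of 10 measured, 3 passed 2-fold towards dendritic cells and 0 towards eosinophils, where 15.5% and 19.0% of all genes measured did so. Their median log2 difference was -0.61, and 0.015 when probe sets with plain IDs, without the letter that marks sets matching several transcripts, were preferred. Citrate synthase, Cs, which opens the cycle, gave 4984 units in eosinophils and 11927 in dendritic cells, 2.39-fold apart, with 3 probe sets between -1.43 and -0.29. It was -0.99 with averaged probe sets and -0.29 with plain IDs. The isocitrate dehydrogenase subunit Idh3g gave 1595 and 5057 units, 3.17-fold apart, but its other probe set gave 2394 and 2510.4, so this gene rests on 1 of 2 probe sets. Fumarase, Fh1, gave 559.8 units in eosinophils and 1265 in dendritic cells, 2.26-fold apart on its only probe set.

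The other subunits of the NAD+-dependent isocitrate dehydrogenase, Idh3a (309 units in eosinophils, 535 in dendritic cells) and Idh3b (909 and 1216), were 1.73-fold and 1.34-fold brighter in dendritic cells. Probe sets of Idh3a ran from -0.79 to 1.24 on the log2 scale. Suclg1, the alpha subunit of succinyl-CoA ligase, gave 229.6 and 417 units, 1.81-fold brighter in dendritic cells. Its partner Sucla2, the beta subunit of the ADP-forming ligase, gave 764 and 714 units, 1.07-fold apart, and Suclg2, the beta subunit of the GTP-linked form, was under the floor at 12.04 and 6.24. Idh2, the NADP+-dependent mitochondrial enzyme, gave 747 units in eosinophils and 663 in dendritic cells, and Ogdh, of the 2-oxoglutarate complex, gave 340.5 and 295. Mitochondrial malate dehydrogenase, Mdh2, gave 10392 and 7042 units, 1.48-fold brighter in eosinophils, and both its probe sets pointed that way. By their brightest probe sets, Idh2, Ogdh, Sucla2 and Mdh2 lay within the spread between probe sets of a gene. The other probe set of Mdh2 gave 0.89 on the log2 scale, beyond that spread. All 4 turned below 0 on the spike scale, and the first 3 also with array medians set equal, as did Sucla2 with quantile normalization, loess or housekeeping genes.

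Cytosolic enzymes that mirror the cycle went in opposite directions. Idh1, the cytosolic NADP+-dependent isocitrate dehydrogenase and another source of NADPH, gave 4153 units in eosinophils and 339 in dendritic cells. It was 12.3-fold brighter in eosinophils, and its other probe set gave 3856 and 357 units, a log2 difference of 3.44. Cytosolic malate dehydrogenase, Mdh1, gave 1217 units in eosinophils and 4522 in dendritic cells, 3.72-fold brighter in dendritic cells, and its 3 measured probe sets lay between -1.89 and -1.77. The cytosolic and mitochondrial forms of these enzymes did not differ alike: Idh1 differed by 3.62 and Idh2 by 0.17 on the log2 scale, and Mdh1 by -1.89 and Mdh2 by 0.56. Acly, which cleaves cytosolic citrate to acetyl-CoA for lipid synthesis, gave 8250.2 and 4773 units, 1.73-fold brighter in eosinophils, with measured probe sets between -0.67 and 1.70. Aco1, the cytosolic aconitase that also binds iron-responsive elements, gave 279 units in eosinophils and 336 in dendritic cells, 1.21-fold apart. Of the malic enzymes, which make pyruvate from malate, Me2 of mitochondria gave 488 and 752 units, 1.54-fold brighter in dendritic cells. Me1 of the cytosol gave 147 and 73.8 units, under the background percentile on both arrays. Pyruvate carboxylase, Pcx, which refills the cycle with oxaloacetate, gave 6.26 and 13.2 units, and its 4 control probe sets on the array did not exceed 136 units on either array.

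Of the 3 glycogen genes measured, only Pygl differed by more than the spread between probe sets of a gene. Pygl, the liver-type glycogen phosphorylase that releases glucose 1-phosphate, gave 8167 units in eosinophils and 272 in dendritic cells, 30.01-fold apart on its single probe set. Pygb, the brain-type phosphorylase, gave 252 and 225 units, 1.12-fold apart, and Pygm, the muscle type, was under the floor. Glycogen synthase, Gys1, gave 384 units in eosinophils and 249 in dendritic cells, 1.54-fold apart. On the spike scale Pygl remained apart, at 3.87 on the log2 scale, while Pygb and Gys1 turned below 0, at -0.88 and -0.42. Pygb did so too with array medians set equal, quantile normalization and loess. The branching enzyme Gbe1 gave 127 units in eosinophils and 2.51 in dendritic cells, both under the floor.

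Further genes of the same pathways, from a list of 71 transporters, isoenzymes and partner enzymes were read beside the members. Of the 55 with a probe set, 40 were measured. Towards eosinophils 6 passed 2-fold and 1 passed 4-fold, and towards dendritic cells 7 and 6 did, around a median of 0.13 on the log2 scale. At 2-fold these are 15.0% and 17.5% of the 40, near the 19.0% and 15.5% of all genes measured. At 4-fold they are 2.5% and 15%, where 5.35% of all genes measured were in each direction. On the eosinophil side stood Slc2a3, the high-affinity glucose transporter GLUT3, with 8499 units in eosinophils and 1326 in dendritic cells, 6.41-fold apart, and measured probe sets between 0.21 and 2.81 on the log2 scale. Slc2a1, the transporter GLUT1, gave 9441 and 6027 units, 1.57-fold apart. Glycogen partners of Pygl went both ways. Of 10 measured, 2 passed 2-fold towards eosinophils and 1 towards dendritic cells, with a median log2 difference of 0.060. These are 20% and 10%, beside 19.0% and 15.5% of all genes measured, whose median was 0.16. Ugp2, which makes UDP-glucose, gave 4708 and 1676 units, 2.81-fold apart, and Gyg, the primer glycogenin, gave 1943 and 709, 2.74-fold apart, both brighter in eosinophils. Phka2, a regulatory subunit of the kinase that activates glycogen phosphorylase, gave 301 units in eosinophils and 1007 in dendritic cells, 3.34-fold brighter in dendritic cells. This subgroup, Ugp2, Gyg, Phka2, H6pd, Rpe, Prps1, Tktl1, Rbks, Prps2, Pgk2, Pygm and the succinate dehydrogenase genes were named after their values were seen.

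The lactate carriers split in opposite ways. Slc16a3, the carrier MCT4 known for lactate export from glycolytic cells, gave 1965 units in eosinophils and 618 in dendritic cells, 3.18-fold brighter in eosinophils. Slc16a1, the carrier MCT1, gave 145 units in eosinophils and 1566 in dendritic cells, 10.8-fold brighter in dendritic cells, or 8.13-fold against the background percentile. Mpc1, of the mitochondrial pyruvate carrier, gave 410.4 and 473 units and hardly differed, and Mpc2 had no probe set named for it alone.

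Of the 6 partner genes at least 4-fold brighter in dendritic cells, Slc16a1 was one, and 3 others work in the shuttles that carry reducing equivalents from glycolysis into mitochondria. The cytosolic aspartate aminotransferase Got1 gave 33.5 units, under the floor, in eosinophils and 1753 in dendritic cells, at least 13.01-fold. Its mitochondrial partner Got2 gave 363 and 2197 units, 6.06-fold apart, while its other probe set gave 178 and 415 units, a log2 difference of -1.22. These enzymes and the malate dehydrogenases make up the malate-aspartate shuttle, whose 2-oxoglutarate carrier Slc25a11, named after its values were seen, was 1.83-fold brighter in eosinophils (417 and 228 units). Gpd2, the mitochondrial enzyme of the glycerol phosphate shuttle, gave 1200.4 units in eosinophils and 5259 in dendritic cells, 4.38-fold apart. Slc25a10, the dicarboxylate carrier, gave 139.8 and 580.4 units, 4.15-fold apart, and Eno3, the muscle enolase, gave 87.7 and 573, at least 4.25-fold. For both, the eosinophil signal was under the background percentile, and against that level they were 3.01-fold and 2.97-fold apart, under 4-fold. The 4 succinate dehydrogenase genes, Sdha, Sdhb, Sdhc and Sdhd, lay between -0.70 and 0.70, so none was 2-fold apart.

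**Figure D3:**
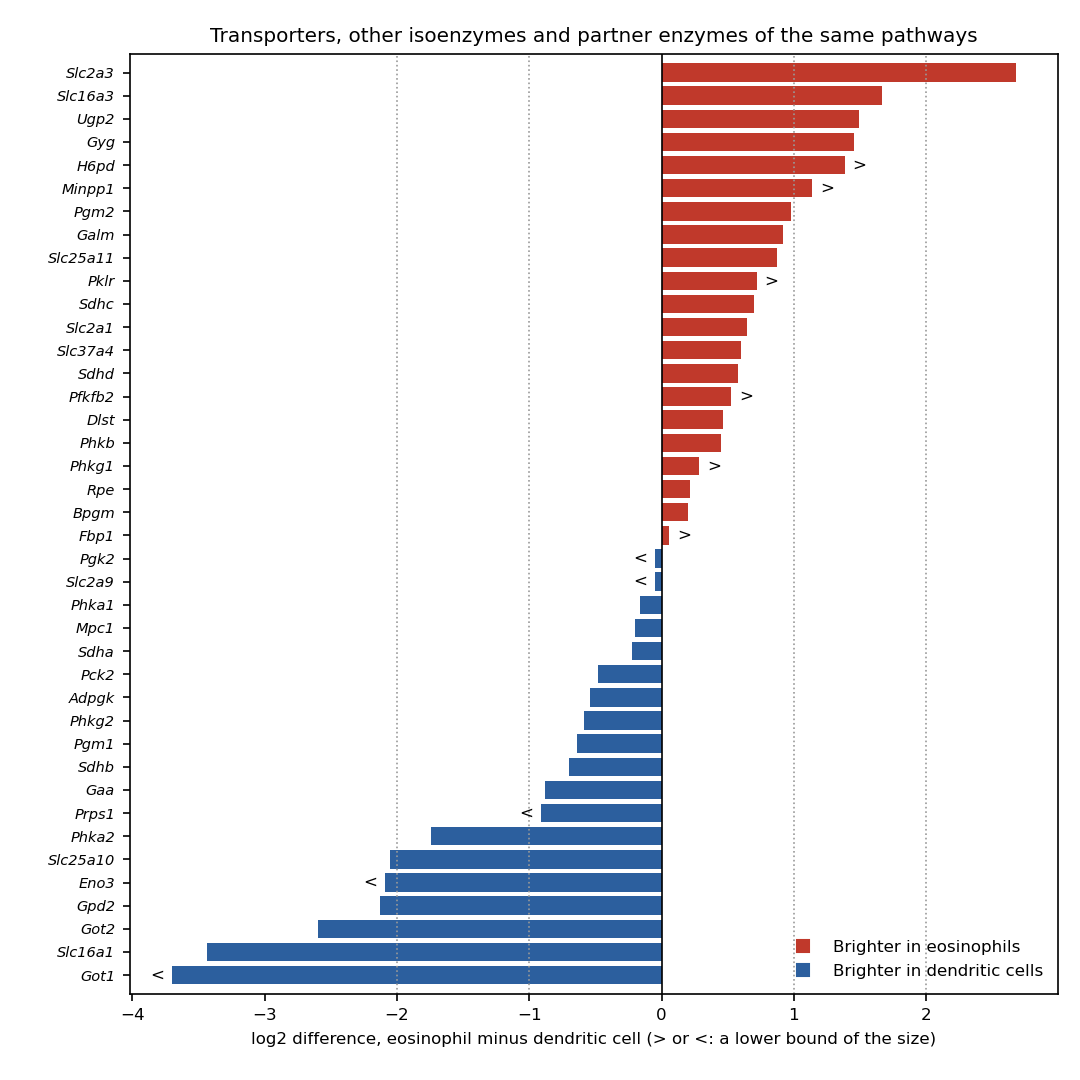
Log2 difference, eosinophil minus dendritic cell, of the 40 measured transporters, isoenzymes and partner enzymes, as bars from 0, with > or < where 1 side was under the floor and the bar is a lower bound. Slc2a3 and Slc16a3 lead on the eosinophil side, and Got1, Slc16a1, Got2 and Gpd2 on the dendritic cell side.

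The order of the pathway groups was read under each way of scaling and choosing probe sets. The pentose phosphate median stayed above 0 under all 9 alternatives plotted, lowest at 0.25 on the spike scale. Glycolytic steps stayed below 0, between -1.73 on the spike scale and -0.69 with the background floor. The mitochondrial cycle did so too, apart from 0.015 with plain IDs. Among members at least 2-fold apart with several measured probe sets, the probe sets shared 1 direction for 11 of 11 genes, and each was itself 2-fold apart for 6. Over the 21 members with several measured probe sets, whatever the size of the difference, probe sets pointed the same way for 17.

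**Figure D4:**
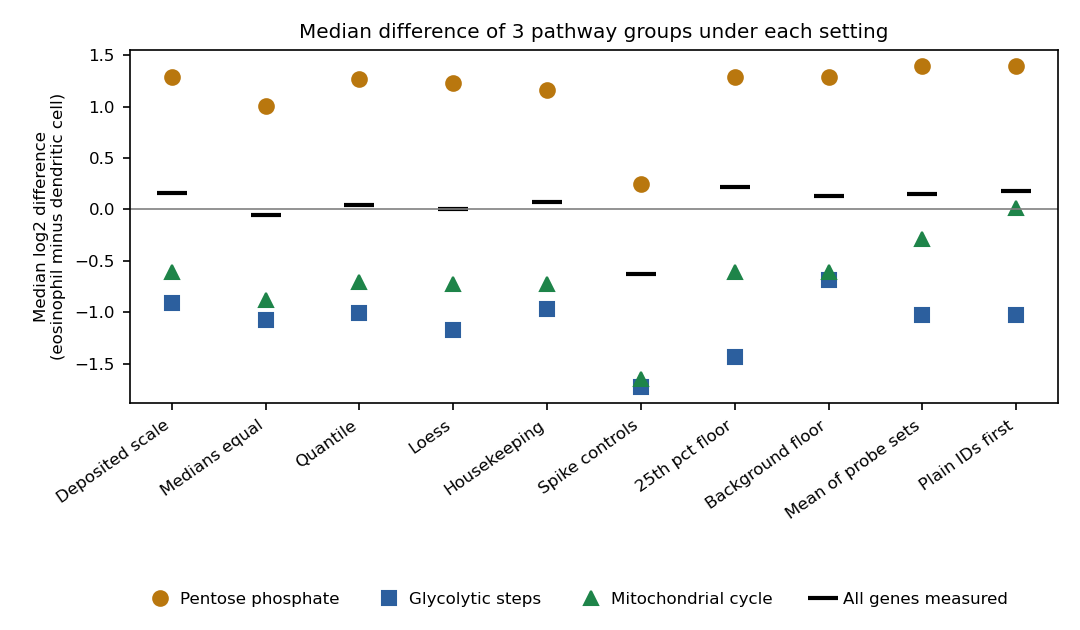
Median log2 difference, eosinophil minus dendritic cell, of 3 pathway groups and of all genes measured (black bars), on the deposited scale and under 9 alternative scalings, floors and probe set rules. The pentose phosphate median lies above that of all genes throughout, the glycolytic median below it, and the mitochondrial cycle between them in each setting.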

How the data were processed

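RNA of 1 eosinophil and 1 dendritic cell sample was extracted with Trizol and turned into biotin-labelled cDNA with an amplification kit, per the labels' protocols. The authors deposited 1 linear intensity for each probe set, without detection calls. The submitters' processing notes name MAS5 (version 5.0). Scanner files were not used here. The trimmed means of both arrays were 499.9 units, which global scaling of each array sets. Their agreement does not show that signals compare between the arrays. The median signals were 148 units in eosinophils and 122 in dendritic cells, and the spike controls differed 2.06-fold. The number of arrays limits the precision, and no p-value was computed.

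Of 22690 probe sets, 20380.0 had 1 gene in the platform annotation and 691 had several. Symbols were updated through a RefSeq table (GRCm38.p6) for 20351. The files name no genome build. Differences are log2 eosinophil minus dendritic cell after the floor, counted at 2-fold and 4-fold (Python 3.11.15, numpy 2.4.6, pandas 2.3.3). The procedure was also run on simulated arrays, scored at 4-fold on genes well over the floor with large planted changes. That run does not show how it performs at 2-fold or near the floor.

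The members and lists were chosen with earlier results of these data known. All members are named. Partner genes are named if at least 4-fold apart or among the transporters Slc2a1, Slc2a3, Slc16a1, Slc16a3, Mpc1 and Mpc2, and others are marked. Alternatives changed the scaling (array medians, quantile, loess with span 0.3, housekeeping genes, spike controls), the floor and the probe set rule. A planned comparison of lactate dehydrogenase proteins was not run.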

Additional observations from a re-analysis of the deposited data

How the results depend on the processing

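Counts and medians over all members were recomputed under 10 alternatives and single genes under up to 9, fewer where a gene fell under the floor, and the cause of any change was not tested. No member at least 2-fold apart changed sign under any of them. Of the 19 such members, between 15 (spike controls) and 19 (housekeeping genes, 25th percentile floor) kept 2-fold in the same direction. Ldhc, Pygl, Idh1 and Pfkp stayed at least 4-fold apart throughout. On the spike scale, counts at 2-fold were 3 in eosinophils and 23 in dendritic cells, and those at 4-fold in dendritic cells 10. There 6.00% and 36.9% of all genes measured passed 2-fold, and 14.2% passed 4-fold towards dendritic cells. The count at 4-fold in dendritic cells was 3 with array medians equal, housekeeping genes, the 25th percentile floor or averaged probe sets. In that order, 7.21%, 6.08%, 5.94% and 4.60% of all genes measured passed it.

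Medians on the spike scale were -1.32 for all members, -1.73 for glycolytic steps, -2.36 for Pfkfb3, -0.71 for lactate dehydrogenases, 0.25 for pentose phosphate, -0.45 for pyruvate dehydrogenase, -1.65 for the mitochondrial cycle, -1.31 for cytosolic and feeding enzymes and -0.42 for glycogen. With array medians equal they were -0.62 for all members, -0.88 for the mitochondrial cycle and -0.55 for cytosolic and feeding enzymes (-0.44 by quantile normalization and -0.47 by loess, which put glycolytic steps at -1.18). The 25th percentile floor gave -1.43 for glycolytic steps, -1.19 for lactate dehydrogenases, 0.067 for pyruvate dehydrogenase, 0.26 for cytosolic and feeding enzymes and 1.12 for glycogen, and the background floor 1.73 for lactate dehydrogenases. Averaged probe sets gave 0.098 for all members, 1.37 for lactate dehydrogenases, -0.29 for the mitochondrial cycle and 2.54 for glycogen. Plain IDs gave -0.17 for all members and 0.015 for the mitochondrial cycle. With genes under the floor kept at 0, all members gave -0.086 and pyruvate dehydrogenase 0. No paired analysis was possible because each population has 1 array. Signals near the floor limit what can be said of Pfkl, Pfkm, Ldhb, Me1 and the genes under it.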
